A study of Mus musculus with 15 samples.

Results

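Oxidative phosphorylation is carried out in the inner mitochondrial membrane by respiratory complexes I to IV, which pass electrons to oxygen and pump protons, and by complex V, the ATP synthase, which uses the proton gradient to make ATP. Most subunits are encoded in the nucleus, made in the cytosol and imported, and a few core subunits come from mitochondrial DNA. Blood stem cells are known for relying on glycolysis more than their dividing progeny, and myeloid progenitors raise mitochondrial respiration as they leave the stem cell state. The genes described here are the nuclear subunit genes, taken by symbol (Ndufa, Ndufb, Ndufc, Ndufs, Ndufv, Uqcr, Cox4 to Cox8, Atp5 and Sdha to Sdhd), which gave 90 of the 23337 gene symbols measured. Complex I holds 36 of them, complex II 4, complex III 8, complex IV 20 and complex V 15. Another 4 are complex I assembly factors (Ndufaf1 to Ndufaf4). The remaining 3 share a prefix and are not counted as subunits of the complexes. They are Cox4nb (Emc8), a subunit of the ER membrane protein complex, Atp5s, a factor coupling the synthase, and Atp5sl (Dmac2), an assembly protein. The mitochondrially encoded subunits are not analysed here.

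RNA was sequenced from mouse bone marrow progenitors sorted as granulocyte-monocyte progenitors (GMP; CD34+ and CD117+ cells without lineage markers or Sca1, high for CD16/32) or common myeloid progenitors (CMP; the same gate, low for CD16/32). The groups were KO GMP (n = 3, library numbers 1, 3 and 4), WT GMP (n = 4), KO CMP (n = 4) and WT CMP (n = 4), where KO is a knockout of Trappc1, a subunit of the TRAPP vesicle-tethering complexes. The labels give no Cre driver, promoter, deleted exon, strain or age, and do not say whether each library is a separate animal. The p-values therefore rest on the variation among these libraries, part of which may be technical. Library totals ran from 61.3 to 120.3 M deposited units (M, mega). That is about 15.3 to 30.1 M sequenced fragments if 4 units stand for 1 fragment, which is an assumption.

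Trappc1 was measured at 6.09, 24.1 and 25.2 CPM (counts scaled to a common library total, per the TMM-adjusted library size, in parts per 1 M) in KO GMP libraries 1, 3 and 4, against 41.3, 37.0, 30.9 and 33.3 CPM in WT GMP. In CMP it was at 5.56, 3.83, 11.7 and 13.4 CPM in KO, against 18.4, 26.2, 18.8 and 25.2 CPM in WT. The groups did not overlap in either cell type. A two-sided exact permutation test gave p = 0.0571 in GMP, the smallest that 35 splits allow, and 0.0286 in CMP, the smallest that 70 splits allow. Gene-level values can hold reads from exons that remain and do not show how much protein was left. KO GMP library 1 and KO CMP libraries 1 and 2 stood apart. They held Xist at 123, 109 and 204 CPM, against at most 2.17 CPM elsewhere. Among library numbers 1 and 2 every KO library was high for Xist and no WT library was. Xist level and genotype therefore cannot be told apart within those numbers. KO GMP library 1 also lay at -17.2 on the first principal component of all genes (49.7% of the variance), where the other GMP libraries lay between 80.3 and 86.5. The gate's Fcgr3 (CD16) was at 125 CPM in it, against 239 to 315 CPM in the other GMP libraries. Markers of other cells moved with these libraries: 9 stroma and endothelium genes summed to between 265 and 355 CPM in them and between 155 and 239.6 CPM elsewhere. In the 3 libraries 8 primary granule genes summed to between 4716 and 22390 CPM, against between 11654 and 46440 CPM elsewhere. Monocyte and macrophage genes (7) summed to between 240.4 and 659 CPM in them, against between 1157 and 3674 CPM elsewhere. In KO GMP library 1, 8 stem and multipotent progenitor genes summed to 307 CPM and 7 megakaryocyte genes to 364 CPM, against 105 to 113 CPM and 99.99 to 127 CPM in WT GMP. In bulk RNA, fewer cells of a type and less RNA per cell cannot be told apart.

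Subunit genes differed widely in level. Per kilobase of transcript, complex V had a median of 315 CPM, complex IV 199, complex III 191, complex II 106 and complex I 86.4 CPM per kb over all libraries. Atp5b, the catalytic beta subunit of the synthase, was highest at 769 CPM per kb, followed by Ndufa4 (557), a subunit named for complex I and found in complex IV, and by Cox4i1 (551). Within complex I the range ran from Ndufs5 at 2.79 to Ndufa6 at 167 CPM per kb. Ndufs5, an accessory subunit, shares 99.4% of 319 aligned bases with the pseudogene BC002163, which the files list at 36.0 to 64.0 CPM in every library, and Ndufs5 itself was at 0.372 to 2.67 CPM, so its level is uncertain. Of the 90 genes, 27 have a copy elsewhere with at least 95% identity over at least 200 bases, a pseudogene in 19 of them, and the treatment of reads that match several genes is not stated by the labels. Atp5g1, Atp5g2 and Atp5g3, which encode the same mature c subunit of the proton-driven ring, were at 54.5, 539 and 365 CPM per kb. Their order per kilobase is therefore Atp5g2, Atp5g3 and Atp5g1, although Atp5g1 has a pseudogene copy with 99.8% identity. The annotated lengths used were 2675.5 bases for Atp5g1, 586 for Atp5g2 and 718.5 for Atp5g3, and the size of the gap depends on them.

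Complex IV has subunits with a common isoform and one restricted in most tissues to heart, muscle, testis or lung. The common isoforms prevailed in every library. Cox7a2 averaged 143 CPM per kb and the heart and muscle isoform Cox7a1 1.56. Cox6a1 averaged 422 CPM per kb and the heart and muscle isoform Cox6a2 2.68. Cox4i1 averaged 551 CPM per kb and the lung isoform Cox4i2 2.08. The testis isoform Cox6b2 was the exception in level, at 43.0 CPM per kb beside 342 for Cox6b1. Cox8b, the muscle partner of Cox8a (452 CPM per kb), was at 0 in 10 libraries and at most 0.287 CPM, and Cox8c and Cox7b2, both testis isoforms, had 0 counts in all 15 libraries, which allows up to 3 fragments in each, for counting error only. These 3 genes did not pass the low-count filter, which left 87 tested. Ndufa4l2, a hypoxia-induced relative of Ndufa4, passed with at most 0.361 CPM, and its fold changes rest on a few fragments.

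**Figure D1:**
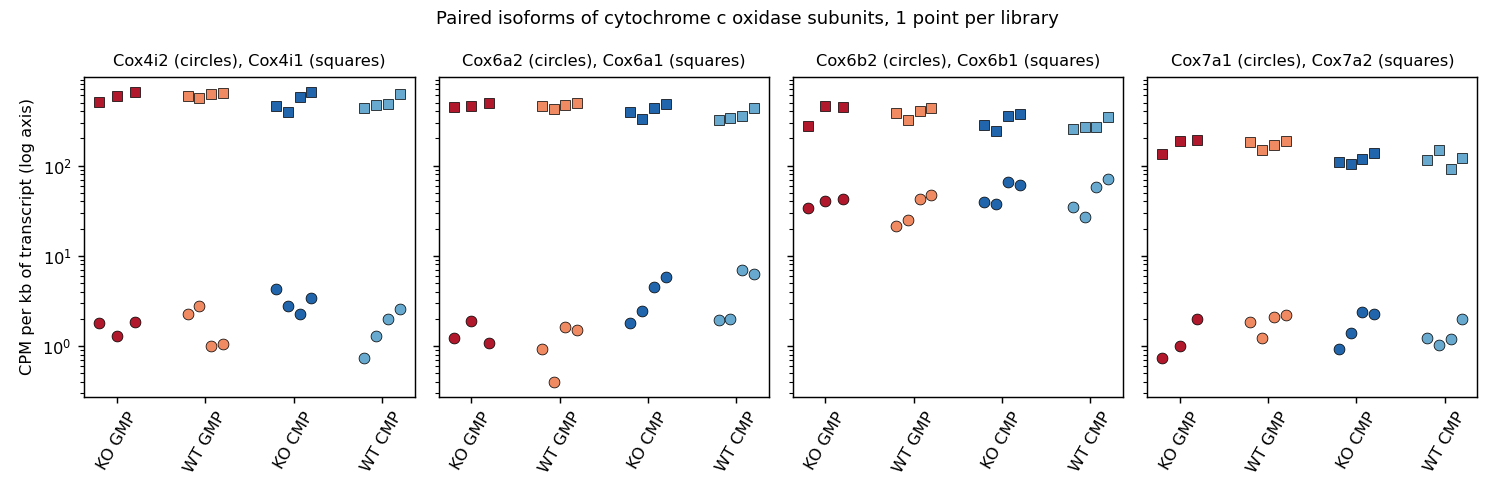
Level of 4 isoform pairs of cytochrome c oxidase subunits in each library (y axis, CPM per kb of transcript, log axis) by group. Squares are the common isoforms Cox4i1, Cox6a1, Cox6b1 and Cox7a2, and circles are Cox4i2, Cox6a2, Cox6b2 and Cox7a1; the squares lie above the circles in every library, and Cox6b2 is the highest of the circles at a mean of 43.0 CPM per kb.

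Some subunits were steadier than others over the 15 libraries. The coefficient of variation was lowest for Sdha (7.33%), the flavoprotein of complex II, Atp5c1 (7.55%), the rotating gamma subunit, and the assembly factor Ndufaf1 (7.72%). Among genes above 5 CPM per kb it was highest for Atp5k (43.5%), the e subunit of the synthase, and for the complex I accessory subunits Ndufs6 (39.3%), Ndufa3 (37.8%) and Ndufb3 (37.7%). These 4 genes had low values in libraries 1 and 2. Atp5k was at 20.8, 70.5 and 64.7 CPM in KO GMP libraries 1, 3 and 4 and at 29.1, 19.8, 49.7 and 73.4 CPM in WT GMP libraries 1 to 4. In CMP libraries 1 to 4 it was at 29.97, 28.6, 48.96 and 45.1 CPM in KO and at 32.6, 21.3, 35.9 and 41.5 CPM in WT. Library 1 of KO GMP and libraries 1 and 2 of the other groups were below libraries 3 and 4, also for Ndufs6 and Ndufa3, whereas Ndufb3 was higher in WT CMP library 1 (50.6 CPM) than in library 3 (40.2 CPM).

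The first comparison asks how the subunit genes differ between the cell types. In WT cells 17 of 87 tested genes were called higher in GMP than in CMP, and the median log2 change was positive in each of the 5 complexes. Summed over all 90 genes, WT GMP libraries 1 to 4 held 13144, 12243, 14026 and 14715 CPM, against 10713, 10799, 10789 and 12877 CPM in WT CMP. The groups overlap only through WT CMP library 4. Of 87 tested genes, 79 had a positive log2 fold change, with a median of 0.26, against -0.02 over all 15181 tested genes. By edgeR's quasi-likelihood test with Benjamini-Hochberg adjustment over all tested genes at a threshold of 0.05 (called, from here on), 17 were higher and 1 was lower in GMP. Over all genes 11.3% were called higher and 14.2% lower. The library numbers were taken to pair libraries, and with them as a block 36 were called higher and 2 lower, beside 16.2% and 18.0% of all genes. The count depended on single libraries: without WT GMP library 1, 2, 3 or 4 it was 5, 9, 7 or 4 higher, and without WT CMP library 1, 2 or 3 it was 7, 10 or 5. Ndufs1, Sdhd and Uqcrc1 were called whichever library was left out. Within numbers 1 and 2 there were 23 higher and 2 lower, and within numbers 3 and 4 37 higher and 4 lower. The share of all genes called is not given here within number sets or without single libraries. Those counts are therefore not set against it.

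**Figure D2:**
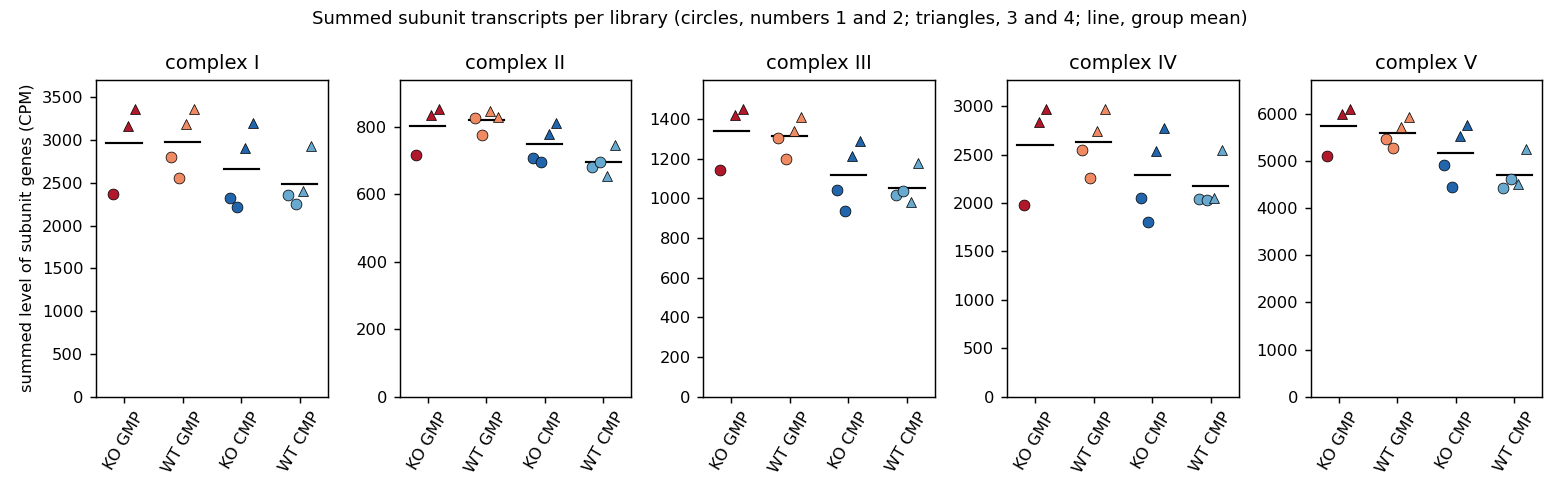
Summed CPM of the subunit genes of each complex (y axis) in every library, by group; circles are library numbers 1 and 2, triangles 3 and 4, and the line is the group mean. WT GMP means exceed WT CMP means in each panel (complex V, 5593 and 4702 CPM). The triangles lie above the circles in each panel in KO GMP, WT GMP and KO CMP, and not in every panel in WT CMP.

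Complex I supplied 4 of the 17 genes, and all 36 of its tested members were positive (median 0.28). Ndufs1, the iron-sulfur subunit at the entry of the peripheral arm, was at 123, 124, 120.1 and 128 CPM in WT GMP, against 95.1, 100.2, 93.0 and 98.7 CPM in WT CMP. The groups lie well apart, and the log2 change was 0.35 ± 0.06 (standard error, as for all log2 changes here; edgeR adjusted p = 0.000767). Ndufa9 (0.35 ± 0.10), Ndufs4 (0.37 ± 0.12) and Ndufb5 (0.40 ± 0.13) were also called. Ndufb5 shares 216 identical bases with transcripts of Mrpl47. Ndufv1, Ndufv2, Ndufs3, Ndufs7 and Ndufs8, which are also core subunits, were not called. Among the assembly factors Ndufaf3 was called at 0.48 ± 0.13 (edgeR adjusted p = 0.0158). It was at 24.4, 19.99, 23.7 and 26.3 CPM in WT GMP and 16.7, 15.04, 17.4 and 18.6 CPM in WT CMP, without overlap.

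Complex II, which is also the succinate dehydrogenase of the TCA cycle, had 3 of 4 subunits called. Sdhd, a membrane anchor, was at 209.7, 187, 207 and 208 CPM in WT GMP, against 153, 159, 136 and 157 CPM in WT CMP (0.42 ± 0.11; edgeR adjusted p = 0.0127). The other anchor Sdhc (0.26 ± 0.08) and the flavoprotein Sdha (0.20 ± 0.07) were called as well. The iron-sulfur subunit Sdhb was not, at 0.03 ± 0.13. Complex III had 3 of 8 called: the core proteins Uqcrc1 (0.39 ± 0.10) and Uqcrc2 (0.26 ± 0.07), and Uqcrq (0.50 ± 0.16), which sits beside cytochrome b. Complex V had 4 of 15 called and all 15 positive: Atp5l (0.46 ± 0.16), the g subunit, Atp5o (0.37 ± 0.12), the stalk protein OSCP, Atp5f1 (0.30 ± 0.10), the b subunit, and Atp5a1 (0.21 ± 0.07), the alpha subunit. Several of these called genes share sequence with other genes. Atp5o shares 287 identical bases with transcripts of its neighbour Donson, and Uqcrc2 shares 507 with those of Pdzd9. Atp5l has 8 pseudogene copies and Atp5f1 has 1.

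Complex IV moved in both directions, with 2 of 17 tested subunits called higher and 1 lower. Cox7a2 was at 121, 98.1, 110.4 and 125 CPM in WT GMP, against 75.1, 97.7, 61.2 and 80.05 CPM in WT CMP (0.53 ± 0.15; edgeR adjusted p = 0.0189). Its lowest GMP library and highest CMP library nearly met. Cox6a1 rose by 0.35 ± 0.11. Its heart and muscle counterpart Cox6a2 fell by 1.95 ± 0.55 on the log2 scale (edgeR adjusted p = 0.0188), at 0.623, 0.269, 1.1 and 1.01 CPM in WT GMP, against 1.32, 1.33, 4.76 and 4.26 CPM in WT CMP. At that level the call rests on about 1 CPM, most of the CMP signal came from libraries 3 and 4, and the call was lost without WT CMP library 3 or 4 or WT GMP library 1. Cox6b2 was lower at -0.48 in WT without being called, and it was called lower with the block (-0.46). None of Cox4nb, Atp5s and Atp5sl was called, and all 3 were negative, between -0.11 and -0.01.

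**Figure D3:**
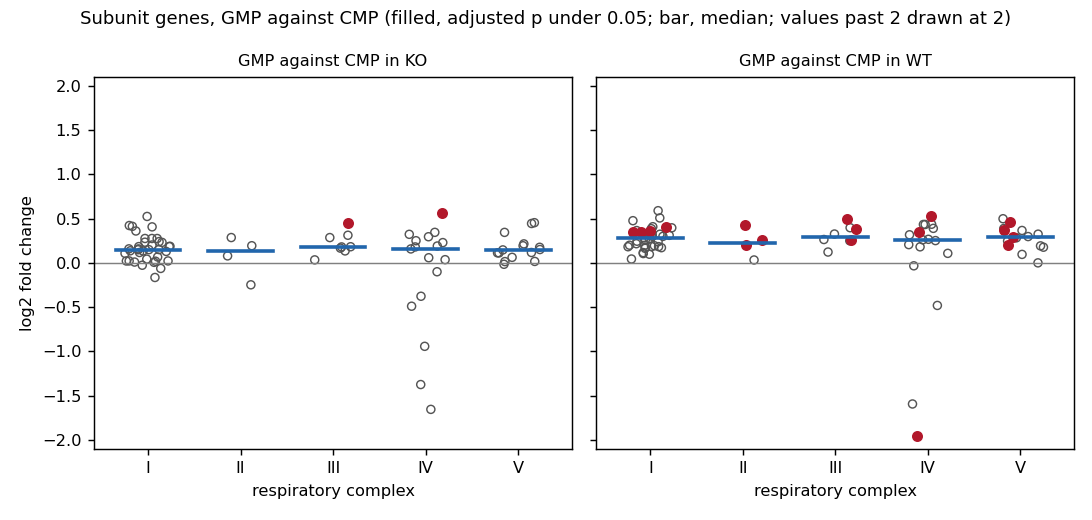
Log2 fold change of GMP against CMP (y axis) for each tested subunit gene by complex (x axis), in KO and in WT. Filled points have an edgeR adjusted p under 0.05 (2 of the points in KO and 17 in WT lie within the 5 complexes) and bars are medians, which are above 0 in each complex in both panels.

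In KO cells the same comparison called 3 genes higher and 0 lower of 87, beside 10.7% and 10.5% of all genes. With the library block 4 were higher and 3 lower, beside 14.6% and 14.0%. Positive log2 changes numbered 72, with a median of 0.15, against -0.02 over all genes. The sum over all 90 genes was 11486, 14451 and 14961 CPM in KO GMP, against 11216, 10282, 13170 and 14060 CPM in KO CMP. The groups overlap, and library 1 is the lowest of KO GMP. The 3 genes were Ndufaf3 (0.61 ± 0.14), Uqcrc1 (0.45 ± 0.11) and Cox7a2 (0.56 ± 0.16), with edgeR adjusted p of 0.00654, 0.00781 and 0.0227. They are 100% of the 3 called in KO and 17.6% of the 17 called in WT, and the comparisons share no library. The block called Ndufs1 in addition (0.17), and Sdhb (-0.29), Cox6b2 (-0.49) and Cox6a2 (-1.52) lower. Leaving out KO GMP library 1 gave 13 genes higher in place of 3, and leaving out KO CMP library 4 gave 5. Without KO GMP library 1, libraries 3 and 4 of KO GMP are compared with libraries 1 to 4 of KO CMP. Cell type and library number are then not balanced, and the part of the numbers in that count was not tested. The Cox7a2 call was lost without KO GMP library 3 or 4 or KO CMP library 1 or 2. The change in WT minus that in KO was called by edgeR for 0 members (0.0% of all genes). It is the same contrast as the KO effect in CMP minus that in GMP, given below.

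Uqcrc1 (chromosome 9, 108936633 to 108949623, plus strand, GRCm38) was at 395, 395 and 421 CPM in KO GMP, against 299, 239.5, 313 and 328 CPM in KO CMP. In WT it was at 368, 404, 358 and 374 CPM in GMP and 283, 311, 249 and 309.9 CPM in CMP. No GMP library was below any CMP library. Ndufaf3 was at 19.2, 25.6 and 25.4 CPM in KO GMP, against 15.8, 12.4, 16.4 and 16.8 CPM in KO CMP. Cox7a2 was at 89.0, 125 and 128 CPM in KO GMP, against 71.8, 68.1, 77.5 and 91.5 CPM in KO CMP, where GMP library 1 lies below CMP library 4.

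The promoters of these 3 genes are shown because they were the members called in both genotypes. The windows run from 250 bases before to 50 after the RefSeq start, on the gene's strand, in GRCm38.p6, and capitals mark matches to the NRF1 motif (GCGCATGC on either strand). Uqcrc1 is at chr9:108936398-108936697, Ndufaf3 at chr9:108567387-108567686 and Cox7a2 at chr9:79759804-79760103.
Uqcrc1: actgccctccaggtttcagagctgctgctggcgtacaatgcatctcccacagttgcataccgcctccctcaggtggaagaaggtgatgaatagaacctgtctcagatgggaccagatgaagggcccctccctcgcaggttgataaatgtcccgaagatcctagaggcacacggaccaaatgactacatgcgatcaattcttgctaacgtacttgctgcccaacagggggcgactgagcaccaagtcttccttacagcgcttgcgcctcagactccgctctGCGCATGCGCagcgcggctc
Ndufaf3: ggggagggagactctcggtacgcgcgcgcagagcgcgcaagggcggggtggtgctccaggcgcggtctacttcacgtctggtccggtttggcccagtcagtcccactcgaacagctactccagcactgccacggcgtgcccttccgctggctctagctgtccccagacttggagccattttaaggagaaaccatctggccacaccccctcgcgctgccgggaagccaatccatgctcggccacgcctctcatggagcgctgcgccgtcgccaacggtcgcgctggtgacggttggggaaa
Cox7a2: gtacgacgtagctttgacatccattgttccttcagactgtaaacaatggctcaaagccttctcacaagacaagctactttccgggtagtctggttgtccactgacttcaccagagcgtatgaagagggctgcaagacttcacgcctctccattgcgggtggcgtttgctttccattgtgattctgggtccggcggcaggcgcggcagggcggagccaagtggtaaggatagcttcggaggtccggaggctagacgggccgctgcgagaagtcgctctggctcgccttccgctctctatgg
The Uqcrc1 window holds the 8-letter NRF1 motif at positions 281 and 283 from its 5′ end, which overlap on opposite strands. The other windows hold none of the 5 motifs searched. Of the 90 genes, 74 matched a RefSeq promoter. The NRF1 motif stood in 11 of them (14.9%), against 2.80% of all 27025 promoters in the table. The ETS motif CCGGAAG, bound by the GABP factor known to act on respiratory genes, stood in 16 (21.6%), against 9.12% of all. The YY1 motif AAGATGG stood in 11 (14.9%), against 6.48%, and the ERR motif CAAGGTCA in 4 (5.41%), against 1.53%. The E-box CACGTG, bound by Myc and others, stood in 7 (9.46%), against 7.24%. A match is a run of letters and not a bound site.

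Other mitochondrial genes were read from lists chosen by function, beside 10.7% of all genes called higher and 10.5% lower in KO, and 11.3% and 14.2% in WT. In the TCA cycle 11 of 18 genes were called higher and 0 lower in WT GMP against WT CMP, with a median of 0.28, and 5 were called higher in KO. They included Dlat (0.55 ± 0.11 in WT), of the pyruvate dehydrogenase complex, and Cs (0.36 ± 0.08), citrate synthase. Of 76 mitochondrial ribosomal protein genes 21 were called higher and 1 lower in WT (median 0.24), and 2 higher and 2 lower in KO. Mrpl44 had the smallest p in both, at 0.69 ± 0.11 in KO and 0.58 ± 0.10 in WT. Of 15 carrier and coenzyme Q genes 4 were higher and 1 lower in WT, with Cycs, cytochrome c, at 0.62 ± 0.15 and Cyc1, the cytochrome c1 subunit of complex III that the symbol rule leaves out, at 0.31 ± 0.08. The lower one was Adck3, a kinase-like protein of coenzyme Q synthesis (-0.65 ± 0.16). Import genes had 5 of 27 higher in WT and 1 in KO. Glycolysis genes had 12 of 19 higher and 3 lower in WT, and 11 and 3 in KO, with a larger median of 0.49 in WT and 0.38 in KO.

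Of 33 assembly factors of complexes II to V, 2 were called higher and 0 lower in each genotype, the copper chaperone Sco1 (0.47 ± 0.09 in KO and 0.31 ± 0.08 in WT) and the heme synthesis enzyme Cox15 (0.32 ± 0.07 in KO and 0.24 ± 0.06 in WT). Of 7 other complex I assembly genes 1 was called in each, Acad9 (0.38 ± 0.08 in KO and 0.40 ± 0.07 in WT). Of 12 regulators of mitochondrial biogenesis 0 were higher, and 2 in KO and 3 in WT were lower. Gabpb1, a subunit of GABP, was at -0.61 ± 0.13 in KO and -0.51 ± 0.12 in WT. Ppargc1a, the PGC-1alpha coactivator, was called in WT (-4.91 ± 1.27), and the difference between genotypes was not tested for it. Mycn fell by 3.97 in KO and by 5.56 in WT on the log2 scale. Cytosolic ribosomal protein genes had 0 of 78 called in either genotype, 0 at an unadjusted edgeR p under 0.05 in KO and 1 in WT. All 8 primary granule genes were called higher in GMP in both genotypes, and all 8 stem cell genes lower.

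The main contrast of the study is knockout of Trappc1. Its transcript was lowered and not absent, at 6.09 to 25.2 CPM in KO GMP against 30.9 to 41.3 CPM in WT GMP. Over all libraries edgeR called 0 of 87 members in KO GMP against WT GMP (0.0% of all genes), and 0 had an unadjusted p under 0.05 (6.49% of all genes). DESeq2 called 0 (0.395% of all genes). The median log2 change was -0.01, against 0.01 over all genes, with 40 positive. Summed complex I was 2366, 3165 and 3370 CPM in KO GMP, against 2801, 2558, 3191 and 3369 CPM in WT GMP. The groups overlap in each of the 5 complexes.

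In KO CMP against WT CMP edgeR also called 0 members (0.0% of all genes), and 3 had an unadjusted p under 0.05 (11.6% of all genes): Ndufs1, Ndufab1 and Cox4i2. DESeq2 called 1, Ndufs1 (2.37% of all genes). Ndufs1 was at 116, 113, 105 and 108 CPM in KO CMP, against 95.1, 100.2, 93.0 and 98.7 CPM in WT CMP, with every KO library above every WT library. Its log2 change was 0.19 ± 0.06 (edgeR adjusted p = 0.237, DESeq2 adjusted p = 0.0138). Ndufaf4 and Sdha were the other members whose groups did not overlap, at 0.21 ± 0.12 and 0.10 ± 0.07, higher in KO. Over all genes 3.25% lay wholly higher and 3.60% wholly lower in KO. Positive changes numbered 74 of 87, with a median of 0.11 against 0.01 over all genes. That median ran from 0.01 without KO CMP library 4 to 0.18 without WT CMP library 4, and it was 0.26 without the 3 libraries that stood apart. The value of 0.26 compares KO CMP libraries 3 and 4 with WT CMP libraries 1 to 4, so genotype and library number are not balanced in it. The comparison within numbers 3 and 4 is given below. The KO effect in CMP minus that in GMP called 0 members (0.0% of all genes) by edgeR, 1 at an unadjusted p under 0.05 (Ndufs1; 2.97% of all genes), and 0 by DESeq2 (0.0198% of all genes).

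**Figure D4:**
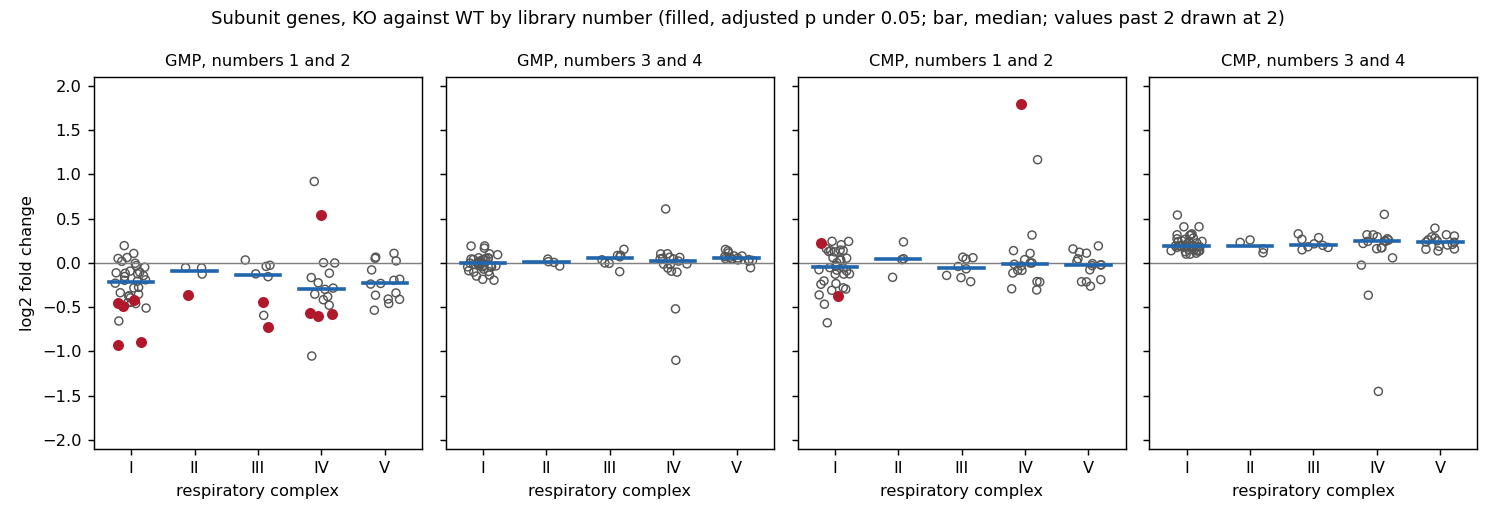
Log2 fold change of KO against WT (y axis) for each tested subunit gene by complex (x axis), within library numbers 1 and 2 or 3 and 4 of GMP and CMP. Filled points have an edgeR adjusted p under 0.05 and bars are medians; in GMP the complex medians are below 0 in numbers 1 and 2, and in CMP they are above 0 in numbers 3 and 4.

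KO against WT was also taken within library numbers. In GMP numbers 1 and 2 KO is a single library, so no spread between KO libraries was measured, and edgeR takes it to vary like the other groups. The calls therefore describe that library against WT GMP libraries 1 and 2. There, 1 member was called higher and 11 lower, beside 11.0% and 9.0% of all genes. The median was -0.21. The lower genes came from complexes I to IV: Ndufb3 (-0.93 ± 0.22), Ndufa1 (-0.90 ± 0.26), Ndufb11, Ndufv2 and Ndufc2, Sdhd (-0.37 ± 0.11), Uqcrb (-0.73 ± 0.17) and Uqcrh, Cox7c (-0.60 ± 0.17), Cox6c and Ndufa4. Ndufb3, an accessory subunit of the membrane arm, was at 26.1 CPM in KO GMP library 1, against 57.3 and 42.2 CPM in WT GMP libraries 1 and 2. Uqcrb, a small subunit of complex III, was at 59.8 CPM, against 112 and 85.9 CPM. The gene called higher was Cox6b2 (0.54 ± 0.16), at 14.7 CPM against 9.26 and 10.9 CPM. Without WT GMP library 1 there were 0 calls in either direction, and without WT GMP library 2 there were 13 lower. Of the lower genes, Ndufa1 and Ndufb11 lie on chromosome X. KO GMP library 1 is the library whose Xist, Fcgr3 and granule genes stood apart, and the part these play in the result was not tested. Cytosolic ribosomal protein genes moved with it, at a median of -0.34 with 16 of 78 called lower.

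In GMP numbers 3 and 4, KO against WT called 0 members (0.0132% of all genes by edgeR), 0 at an unadjusted p under 0.05 (5.2% of all genes) and 0 by DESeq2 (0.283% of all genes). The median was 0.03, with 54 of 87 positive. Trappc1 itself was at 24.1 and 25.2 CPM in KO GMP libraries 3 and 4, against 30.9 and 33.3 CPM in WT. These calls therefore describe libraries in which much of the Trappc1 transcript was still measured. Ndufb3 was at 81.2 and 83.9 CPM in KO GMP libraries 3 and 4, against 83.5 and 86.6 CPM in WT. The difference between the number sets was called for 0 members higher and 1 lower, beside 6.27% and 4.36% of all genes. That gene was Uqcrb (-0.81 ± 0.21; edgeR adjusted p = 0.0297), at 130.2 and 127 CPM in KO GMP libraries 3 and 4, against 110.2 and 132 CPM in WT. It rests on KO GMP library 1 alone for numbers 1 and 2. The call was lost without KO GMP library 3 or 4 or WT GMP library 1 or 3, and there were 3 lower without WT GMP library 2 or 4. Uqcrb has 3 pseudogene copies, Cox6c has 2, and Ndufb3 and Ndufb11 have 1 each. Cox7c shares 233 bases at 99.6% identity with Gm10012.

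In CMP numbers 1 and 2, 2 members were called higher and 1 lower, beside 8.23% and 10.2% of all genes, with a median of -0.02. Cox4i2, the lung isoform of the regulatory subunit IV, was at 3.10 and 2.01 CPM in KO, against 0.539 and 0.928 CPM in WT (1.80 ± 0.40; edgeR adjusted p = 0.00724). Its common isoform Cox4i1 was at 349 and 296 CPM in KO, against 326 and 358 CPM in WT. Ndufs1 rose by 0.23 ± 0.07 (edgeR adjusted p = 0.0343) and Ndufb11, which lies on chromosome X, fell by 0.37 ± 0.11 (edgeR adjusted p = 0.0366). Stroma and endothelium genes moved with these libraries, 6 of 9 called higher, and all 8 primary granule genes were called lower. Elane, a granule protease, was at 228 and 335 CPM in KO libraries 1 and 2, against 3488 and 3878 CPM in WT, and Fcgr3 was at 12.9 and 18.8 CPM, against 99.5 and 115 CPM. Xist was at 109 and 204 CPM in KO libraries 1 and 2, against 2.17 and 0.833 CPM in WT. Xist level and genotype therefore cannot be told apart within these libraries. The part of these markers in the results was not tested. Cox4i2 was not called without WT CMP library 1, Ndufs1 without any 1 of the 4 libraries, and Ndufb11 without KO library 1 or either WT library.

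In CMP numbers 3 and 4, 82 of 87 members were positive, with a median of 0.21 against -0.01 over all genes. None passed the adjustment: edgeR called 0 (0.00659% of all genes), 21 had an unadjusted p under 0.05 (11.4% of all genes), and DESeq2 called 0 (0.909% of all genes). Complex V had 7 of the 21. Atp5g3 had the smallest p, at 302 and 325 CPM in KO, against 229 and 274 CPM in WT (0.32 ± 0.09; edgeR adjusted p = 0.304). Mitochondrial ribosomal protein genes were positive in 76 of 76 (median 0.22) and cytosolic ones in 77 of 78 (median 0.15), also with 0 called by edgeR. Of these, 24 and 1 had an unadjusted p under 0.05. The median rested on WT library 3. It was 0.08 without that library, 0.37 without WT library 4, and between 0.15 and 0.28 without either KO library. The difference between the number sets in CMP called 0 members by edgeR (7.64% of all genes), with 19 at an unadjusted p under 0.05 (20.5% of all genes). DESeq2 called 4 (10.9% of all genes), all lower: Cox7b, Sdhd, Ndufb11 and Atp5h. By edgeR there were 6 lower without WT CMP library 4, 3 without KO CMP library 1, and 1 without KO CMP library 2 or 3.

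The library numbers also parted the WT libraries. In WT GMP, libraries 1 and 2 against 3 and 4 had 0 members higher and 19 lower, beside 3.16% and 5.45% of all genes. The median was -0.17. Complex I held 13 of the 19, among them Ndufs6 (-1.15 ± 0.24), Ndufa3 (-0.95 ± 0.22), Ndufb3 (-0.77 ± 0.18) and the flavin-binding core subunit Ndufv1 (-0.43 ± 0.09). The others included Atp5k (-1.33 ± 0.22), Cox5b (-1.02 ± 0.18), a nuclear zinc-binding subunit of complex IV, Uqcr11 (-0.99 ± 0.18) and Cox6b2 (-0.95 ± 0.14). In WT CMP 0 members were higher and 16 lower, beside 12.3% and 10.6% of all genes, with a median of -0.18. Cox6a2 (-1.76 ± 0.39), Cox4i2 (-1.17 ± 0.39), Cox6b2 (-1.06 ± 0.14), Ndufa8 (-0.64 ± 0.13) and Cox5b (-0.61 ± 0.18) had the largest called changes. Ndufa8, Ndufv1, Uqcr11, Cox5b and Cox6b2 were called in both cell types, 26.3% of the GMP list and 31.2% of the CMP list. Cox6b2 was at 9.26 and 10.9 CPM in WT GMP libraries 1 and 2 and 18.7 and 20.3 CPM in libraries 3 and 4. In WT CMP it was at 15.03 and 11.7 CPM in libraries 1 and 2 and 25.2 and 30.6 CPM in libraries 3 and 4. Without WT GMP library 2 or 4 the GMP count was 2 or 5 lower, and without WT CMP library 2, 3 or 4 the CMP count was 2, 31 or 4. Cell type markers moved with the numbers in WT CMP, where all 8 primary granule genes were called higher and 5 of 8 stem cell genes lower in libraries 1 and 2. Elane was at 3488 and 3878 CPM in libraries 1 and 2 and 1021 and 1183 CPM in libraries 3 and 4, and Fcgr3 at 99.5 and 115 CPM and 36.6 and 39.3 CPM. In WT GMP 4 of 8 granule genes were called lower. The part of these markers in the results was not tested. What the numbers stand for is not given in the labels.

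Transcript length moved with several of these results. Of the members 55 have a transcript under 1000 bases and 32 a longer one. In WT GMP, numbers 1 and 2 against 3 and 4, the median was -0.29 for short and -0.07 for long members, and it was -0.18 for the 1139 other tested genes under 1000 bases and 0.00 for the 12908 tested genes that are longer. In GMP numbers 1 and 2, KO against WT gave -0.34 for short and -0.05 for long members, against -0.18 and 0.02 for the other short and for all longer genes. In CMP numbers 3 and 4, KO against WT gave 0.24 for short and 0.19 for long members, against 0.12 and -0.02. For GMP against CMP in WT the values were 0.30 and 0.23 for members, against 0.11 and -0.01. The part of length in these results was not tested.

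**Figure D5:**
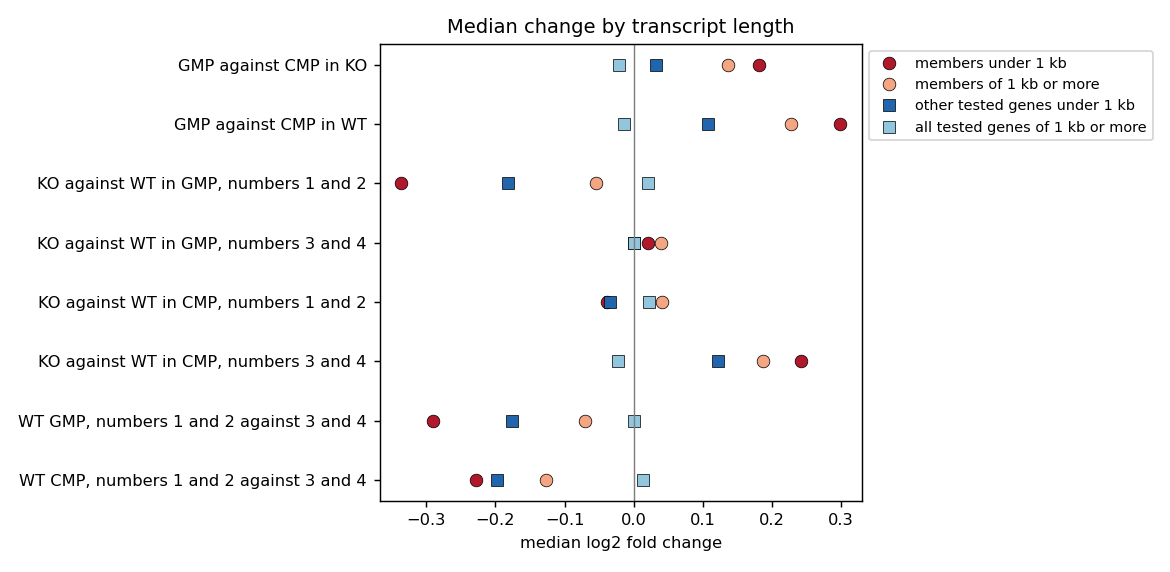
Median log2 fold change (x axis) of members and of other tested genes, split at a transcript length of 1000 bases, in 8 comparisons (y axis). In GMP against CMP in WT the short and long members lie close together (0.30 and 0.23), whereas in GMP numbers 1 and 2, KO against WT, they lie at -0.34 and -0.05.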

How the data were processed

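The deposited values are expected counts (estimated counts) per gene symbol in 15 libraries, made by the authors and not scaled between libraries. The kit was SMARTER mRNA-Seq, per the labels' protocols. Reads were aligned with HISAT to mm10, per the submitters' processing notes. The sources used here do not give versions, the counting tool, its annotation or its use of strand. Cox4i1 and Cox4nb overlap on opposite strands, so their reads may not be told apart. Multiples of 4 made up 38% of the values from 1 to 40, where an even spread gives 25%, and 4 units were taken as 1 fragment. That share does not establish the step, and the fragment totals rest on it. None of 105 pairs of libraries was identical (0 found).

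The values, rounded to whole numbers, were filtered by filterByExpr (15181 of 23337 genes kept), scaled by TMM and tested by edgeR 4.0.16 (R 4.3.3) with the quasi-likelihood test. A fit with 4 group coefficients (11 residual degrees of freedom) gave 5 comparisons, and a fit with 8 coefficients for group and number set, 1 and 2 or 3 and 4 (7 degrees of freedom), gave the other 8. P-values are two-sided, with Benjamini-Hochberg adjustment across the tested genes and a threshold of 0.05. DESeq2 1.42.0, RLE scaling, no filter, values divided by 4, a library block, a number set covariate and leaving out libraries were tried. The edgeR fit with 4 coefficients was tested on simulated data with known changes. The fit with 8 coefficients and the alternatives were not. Trappc1 was compared on log2(CPM + 1) by exact permutation of the group labels.

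Deviations from group means correlated at 0.127 to 0.419 in all 14 same-numbered pairs of libraries from compared groups. This was above the limit of 0.1, so numbers were taken to pair libraries. Libraries with different numbers of the same set correlated at 0.0643 to 0.395 and those of different sets at -0.460 to -0.0891, so the values do not separate single numbers from number sets. The labels do not state a pairing.

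Positions and median lengths of protein-coding transcripts come from GENCODE M21 on GRCm38 (90 members matched, 2 under another symbol), and promoters from RefSeq (GRCm38.p6). Other copies were found by BLAST of transcripts. The members and lists were chosen with earlier results of these data known. Named genes are called genes, the smallest p per complex, core subunits, isoforms, and extremes of level. Others that this rule names are not reported here.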

Additional observations from a re-analysis of the deposited data

Results flagged for a closer look

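In groups of 4 libraries, 72 items (the named members and the summed complexes) in 216 groups were checked for 1 library far from the rest. There were 7 such cases in the 216 groups, fewer than the rate of about 1 in 20 groups that chance gives. In WT GMP, Sdhd was at 187 CPM in library 2, against 207 to 210 CPM in the others. Atp5c1 and Atp5o were high in library 1 of WT GMP, at 304 CPM against 291 CPM in the others, and at 275 CPM against 236 to 242 CPM. In WT CMP, library 3 was low for Sdha, at 306 CPM against 333 to 335 CPM. WT CMP library 4 was high for Uqcrfs1, the Rieske iron-sulfur protein (151 CPM against 126 to 127), for Cox6b1 (168 CPM against 125 to 131) and for the sum of complex IV (2548 CPM against 2035 to 2055). Without that library 14 members were called higher in WT GMP against WT CMP, where 17 were called with it.

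Uqcrb had a KO effect in GMP that differed between library numbers 1 and 2 and numbers 3 and 4, by -0.81 ± 0.21 on the log2 scale (edgeR adjusted p = 0.0297). The KO side of numbers 1 and 2 is 1 library, which stood apart on Xist and Fcgr3, and its spread was not measured.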

How the results depend on the processing

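No called gene changed direction under the alternatives run for it. Of the 18 genes called for GMP against CMP in WT, 1 was called in every alternative, and of the 3 in KO 0 were. Over genes and alternatives the call was lost in 130 of 378 cases in WT and 11 of 60 in KO. For GMP against CMP in WT, 17 members were higher and 1 was lower. The alternatives gave 36 and 2 with the library block, 38 and 2 with number set as covariate, 35 higher without the libraries that stood apart, 10 higher with no filter, 37 and 4 within numbers 3 and 4, and 23 and 2 within numbers 1 and 2. Leaving out single libraries gave 4 to 14 higher and 0 to 1 lower. In KO (3 and 0) there was 1 higher within numbers 1 and 2, 10 and 5 within numbers 3 and 4, 3 lower with the block and 2 lower with the covariate, and single libraries gave 2 to 13 higher. The block without library number 1, 2, 3 or 4, chosen after seeing the data, gave 30, 35, 5 or 8 higher and 2, 2, 1 or 1 lower in WT, and 11, 3, 1 or 0 higher and 3, 1, 0 or 0 lower in KO. The block changed no call for KO against WT over all libraries (0 members). DESeq2 called 1 member higher for KO against WT in CMP. In CMP numbers 1 and 2 (2 and 1), DESeq2 gave 4 and 2, no filter 1 and 2, and division by 4 gave 2 lower, and single libraries gave 1 to 2 higher and 0 to 1 lower. In GMP numbers 1 and 2 (1 and 11), DESeq2 gave 17 lower, and single libraries gave 0 to 1 higher and 0 to 13 lower. For the difference between number sets, DESeq2 gave 4 lower and no filter 1 lower in CMP (0 by edgeR). In GMP (1 lower) DESeq2 gave 1 higher and 6 lower, and no filter 3 lower. Leaving out single libraries gave 0 to 6 lower in CMP and 0 to 3 in GMP. For numbers 1 and 2 against 3 and 4 single libraries gave 2 to 18 lower in WT GMP, where DESeq2 also called 1 higher, and 2 to 31 lower in WT CMP. The cause of these shifts was not tested. Shares over all genes are not given in this section, so its counts show only how the calls depend on the setting. Where 1 library is left in an arm, it is assumed to vary like the other groups. Depth limits Cox6a2, Cox4i2, Cox7a1, Ndufs5 and Ndufa4l2, all low per kilobase.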
